A study of Mus musculus with 6 samples.

Results

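Crip2, Arf5, Tusc1, Chchd10, Btg3, Bag1 and Gstm5 are 7 of the 15 named genes whose transcripts stood highest in whole blood of food-restricted mice relative to controls, out of 7913 named genes tested and 16535 named genes on the array. They were chosen by their measured log2 ratio of 50% food restriction (FR) over control, so that contrast is given for them as a description and with no test. The FR group consisted of 8 male mice of the inbred strain C57BL/6J, labelled as 9 weeks of age, that received 50% FR over 2 weeks. The control group was 8 mice of the same sex, strain and age on a normal diet. Mice were anaesthetised before blood was drawn from the right ventricle, and blood was frozen at once. RNA of several mice of a diet was mixed before hybridisation. Mice 1 to 4 made up pool 2, mice 5 to 8 made up pool 3, and pool 1 combined mice 1 to 8. FR and control RNA of a pool shared an array, and each pool was run on 2 arrays with Cy5 and Cy3 exchanged, which gives 6 arrays. Pools 2 and 3 are independent and serve as the 2 replicates. Pool 1, on a separate slide, is a repeat measurement of mice already in those pools. The study set adult undernutrition beside fetal undernutrition in a search for genes behind the developmental origins of disease, and adult blood is described here. Differences between single mice cannot be seen in pooled RNA.

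Most RNA of whole blood comes from young red cells (reticulocytes), platelets and white cells, and a transcript measured in whole blood carries no label of the cell it came from. The 7 genes belong to different families. Crip2 is a LIM domain protein best known from heart and vessels. Arf5 is a small GTPase of vesicle traffic at the Golgi. Chchd10 lies in the intermembrane space of mitochondria, and mutations of human CHCHD10 cause motor neuron disease and muscle disease. Btg3 belongs to the BTG/TOB family of antiproliferative proteins, members of which recruit the CCR4-NOT deadenylase that shortens mRNA tails. Bag1 is a co-chaperone that promotes nucleotide exchange on HSP70. Gstm5 is a mu-class glutathione transferase, and Tusc1 is a candidate tumour suppressor of little-known function.

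RefSeq promoter windows of the assembly GRCm38.p6, from 250 bases before to 50 bases after each annotated transcript start, were matched for 7 of 7 genes, with 9 windows because Crip2 and Btg3 have 2 starts each. Windows of 5 genes are shown because they hold the motif matches described here, and because Btg3 and Bag1 had the most alike array values. Each is written along the strand of the gene. Capitals mark matches, on either strand, to the C/EBP-ATF response element CARE (TGATGNAA), the E-box CACGTG, the CRE core TGACG, the AP-1 motif TGANTCA, the antioxidant response element core (TGACNNNGC) or the ETS motif CCGGAAG.
Chchd10 (chr10:75932880-75933179, plus strand): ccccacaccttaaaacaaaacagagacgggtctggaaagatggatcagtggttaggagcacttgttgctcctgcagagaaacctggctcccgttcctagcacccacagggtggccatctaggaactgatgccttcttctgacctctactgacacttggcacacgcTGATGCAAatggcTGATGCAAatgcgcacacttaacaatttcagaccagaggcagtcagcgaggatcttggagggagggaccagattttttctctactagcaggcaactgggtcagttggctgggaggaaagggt
Arf5 (chr6:28423354-28423653, plus strand): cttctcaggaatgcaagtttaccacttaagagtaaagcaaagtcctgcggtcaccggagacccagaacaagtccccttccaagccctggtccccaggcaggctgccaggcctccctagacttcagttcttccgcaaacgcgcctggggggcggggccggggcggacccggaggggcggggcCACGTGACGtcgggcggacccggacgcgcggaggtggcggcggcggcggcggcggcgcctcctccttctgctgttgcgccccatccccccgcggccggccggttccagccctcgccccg
Gstm5 (chr3:107895604-107895903, plus strand): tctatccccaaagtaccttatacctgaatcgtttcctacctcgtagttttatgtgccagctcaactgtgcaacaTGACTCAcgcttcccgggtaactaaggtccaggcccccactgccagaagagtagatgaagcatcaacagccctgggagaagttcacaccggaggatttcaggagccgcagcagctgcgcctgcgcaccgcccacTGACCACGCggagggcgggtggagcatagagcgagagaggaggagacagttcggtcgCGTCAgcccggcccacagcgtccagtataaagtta
Btg3 start 1 (chr16:78376761-78377060, minus strand): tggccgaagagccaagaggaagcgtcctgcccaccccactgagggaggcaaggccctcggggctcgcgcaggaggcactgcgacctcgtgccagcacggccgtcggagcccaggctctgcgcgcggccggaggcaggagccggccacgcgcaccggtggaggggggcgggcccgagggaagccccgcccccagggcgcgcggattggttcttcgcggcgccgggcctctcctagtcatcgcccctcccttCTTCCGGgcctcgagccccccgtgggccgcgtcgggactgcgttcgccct
Bag1 (chr4:40948245-40948544, minus strand): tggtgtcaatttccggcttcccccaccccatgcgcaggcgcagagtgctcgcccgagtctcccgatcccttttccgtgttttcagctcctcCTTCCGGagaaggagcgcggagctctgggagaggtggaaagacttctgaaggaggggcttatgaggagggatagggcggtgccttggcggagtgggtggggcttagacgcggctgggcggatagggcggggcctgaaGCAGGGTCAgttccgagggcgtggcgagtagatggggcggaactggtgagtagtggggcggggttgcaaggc

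The Chchd10 window held 2 CARE matches, at -85 and -72 bases from the start. A CARE match was present in 3.97% of all 32851 promoter windows, and 2 of them in 23 windows (0.07%). CARE is the DNA element bound by ATF4 in amino acid and mitochondrial stress responses. The Arf5 window held an E-box at -69, a motif found in 7.15% of windows, and it overlapped a CRE core match that 20.8% of windows share. In the Gstm5 window there was an AP-1 match at -176 (7.81% of windows) and an antioxidant response element match at -42 (12.4% of windows), the kind of element known from glutathione transferase genes. The antioxidant element was also matched in Bag1, at -22. Btg3 and Bag1 each held an ETS match, which 8.86% of windows share. GC boxes (GGGCGG) occurred in 6 of the 7 genes, all but Chchd10, and in 35.7% of windows. The window of Chchd10 had 5 CpG sites and the Arf5 window 32, where the median over all windows was 7. None of the 9 windows held the GATA motif as AGATAA (11.2% of all windows), AGATAG (8.95%), TGATAA (9.05%) or TGATAG (7.29%). The CRE core was also matched in Crip2 and Gstm5. Among other motifs searched, the KLF motif CCNCNCCCN was matched in 5 of the 7 genes (49.4% of windows), partly at the same letters as GC boxes, CCAAT in 2 (37.4%), TATAAA in Gstm5 (13.6%), and the full CRE TGACGTCA (1.79%) and the FoxO motif TGTTTAC (3.65%) in none. The motifs were chosen with these sequences in view, and each match is a description of letters in a short window.

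**Figure D1:**
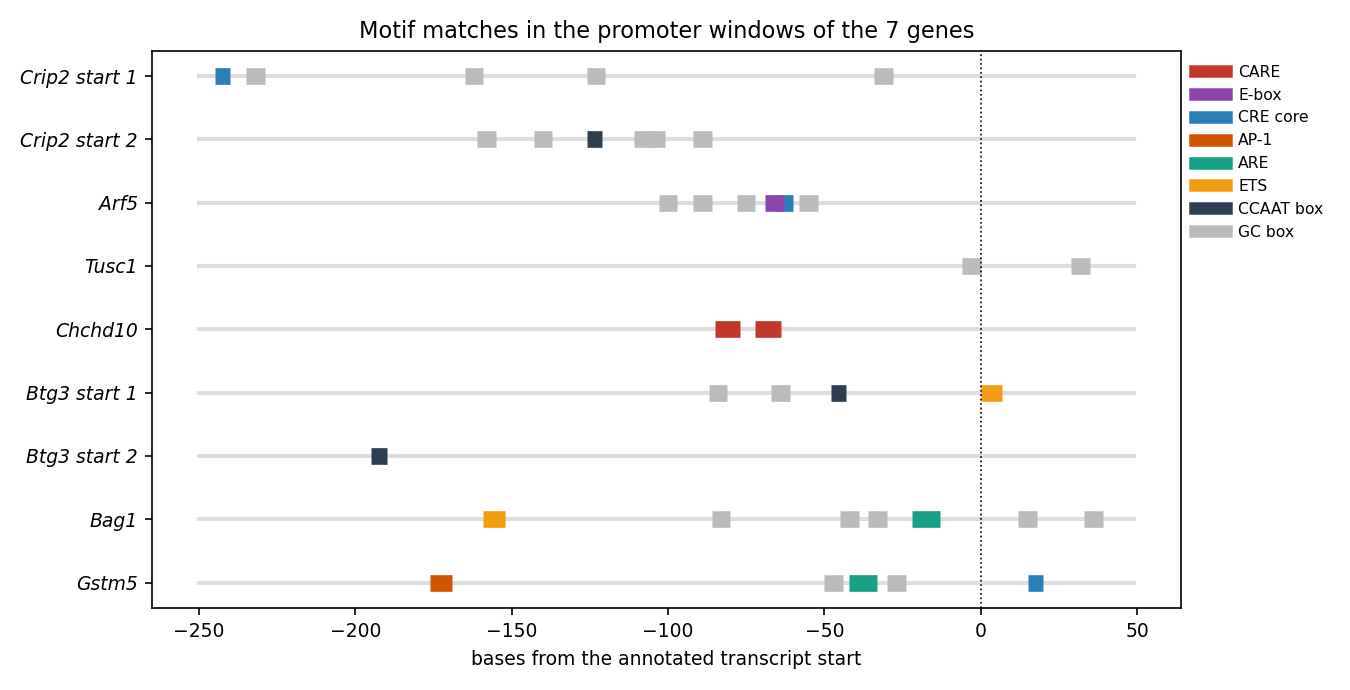
Motif matches in the 9 promoter windows of the 7 genes, one row a window, placed by distance in bases from the annotated transcript start (dotted line). Chchd10 holds 2 CARE matches at -85 and -72 and no GC box, and the Arf5 E-box, starting at -69, overlaps the CRE core, starting at -65.

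All 7 genes were measured by 1 probe and 1 spot each, and both FR and control were well above background on 6 of 6 arrays. Crip2 stood highest of all named genes. Its scanner median signal, before background correction and normalization, was 2184 in FR and 285 in control on the pool 1 array with FR in Cy5, 1455 in FR and 261.5 in control in pool 2, and 1655 in FR and 238 in control in pool 3. With the dyes exchanged it was 875.5 in FR and 306 in control in pool 1, 866 in FR and 345 in control in pool 2, and 795 in FR and 343.5 in control in pool 3. FR was above control on every array, in both orientations.

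After normalization the log2 ratio of Crip2 was 2.44, 2.22 and 2.66 in pools 1, 2 and 3 with FR in Cy5, and 2.36, 2.15 and 2.79 with FR in Cy3. The mean over pools 2 and 3 was 2.45 ± 0.38 (SD, n = 2 pools), or 5.48-fold, and pool 1 gave 5.27-fold. Its normalized log2 signal was 9.93, 10.49 and 10.66 in FR and 7.54, 8.30 and 7.94 in control, in the order of the pools, so the lowest FR pool lay 1.63 above the highest control pool. In whole blood, fewer cells of a type and less RNA per cell cannot be told apart, and neither can more cells and more RNA per cell.

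Arf5 had log2 ratios of 1.69, 1.33 and 1.69 in pools 1, 2 and 3 with FR in Cy5, and of 1.79, 1.46 and 2.66 with FR in Cy3. The value from pool 3 with FR in Cy3 stood apart from the rest, 0.97 above the other array of its pool. Over pools 2 and 3 the mean was 1.79 ± 0.55 (SD, n = 2 pools), or 3.45-fold. Its normalized log2 signal was 12.35, 12.23 and 12.95 in FR and 10.61, 10.84 and 10.77 in control, and the diets did not overlap.

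Tusc1 varied least between the pools. Its log2 ratio was 1.68, 1.81 and 1.68 in pools 1, 2 and 3 with FR in Cy5, and 1.47, 1.41 and 1.68 with FR in Cy3. The mean was 1.65 ± 0.05 (SD, n = 2 pools), or 3.13-fold. Its normalized log2 signal was 9.99, 10.34 and 10.43 in FR, against 8.41, 8.73 and 8.75 in control.

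Chchd10, the mitochondrial protein, had log2 ratios of 1.52, 1.24 and 1.79 in pools 1, 2 and 3 with FR in Cy5, and of 1.69, 1.36 and 1.86 with FR in Cy3. The mean over pools 2 and 3 was 1.56 ± 0.37 (SD, n = 2 pools), or 2.95-fold. Its normalized log2 signal was 11.75, 11.84 and 12.19 in FR and 10.15, 10.55 and 10.37 in control, again without overlap.

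Btg3 and Bag1, which act in mRNA decay and in protein folding, had nearly the same ratios. For Btg3 they were 1.51, 1.09 and 1.50 with FR in Cy5 and 1.25, 1.03 and 1.78 with FR in Cy3, in the order of the pools. For Bag1 they were 1.43, 1.11 and 1.44 with FR in Cy5 and 1.24, 1.03 and 1.81 with FR in Cy3. Both were lowest in pool 2 and highest on the pool 3 array with FR in Cy3. The mean over pools 2 and 3 was 1.35 ± 0.41 for Btg3, or 2.55-fold, and 1.34 ± 0.39 for Bag1, or 2.54-fold (SD, n = 2 pools each). The lowest FR pool was above the highest control pool by 0.98 for Btg3 and by 1.02 for Bag1 in normalized log2 signal.

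Gstm5 differed most between the pools. Its log2 ratio was 0.84 and 0.68 on the arrays of pool 2, against 1.49 and 1.87 on those of pool 3, with FR in Cy5 given before FR in Cy3. Pool 1, which mixes the animals of both, gave 1.01 and 1.06. The mean over pools 2 and 3 was 1.22 ± 0.65 (SD, n = 2 pools), or 2.33-fold, and pool 1 gave 2.05-fold. Its normalized log2 signal was 10.49, 10.69 and 11.26 in FR and 9.45, 9.93 and 9.58 in control in pools 1, 2 and 3, and the smallest distance between an FR pool and a control pool was 0.56.

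**Figure D2:**
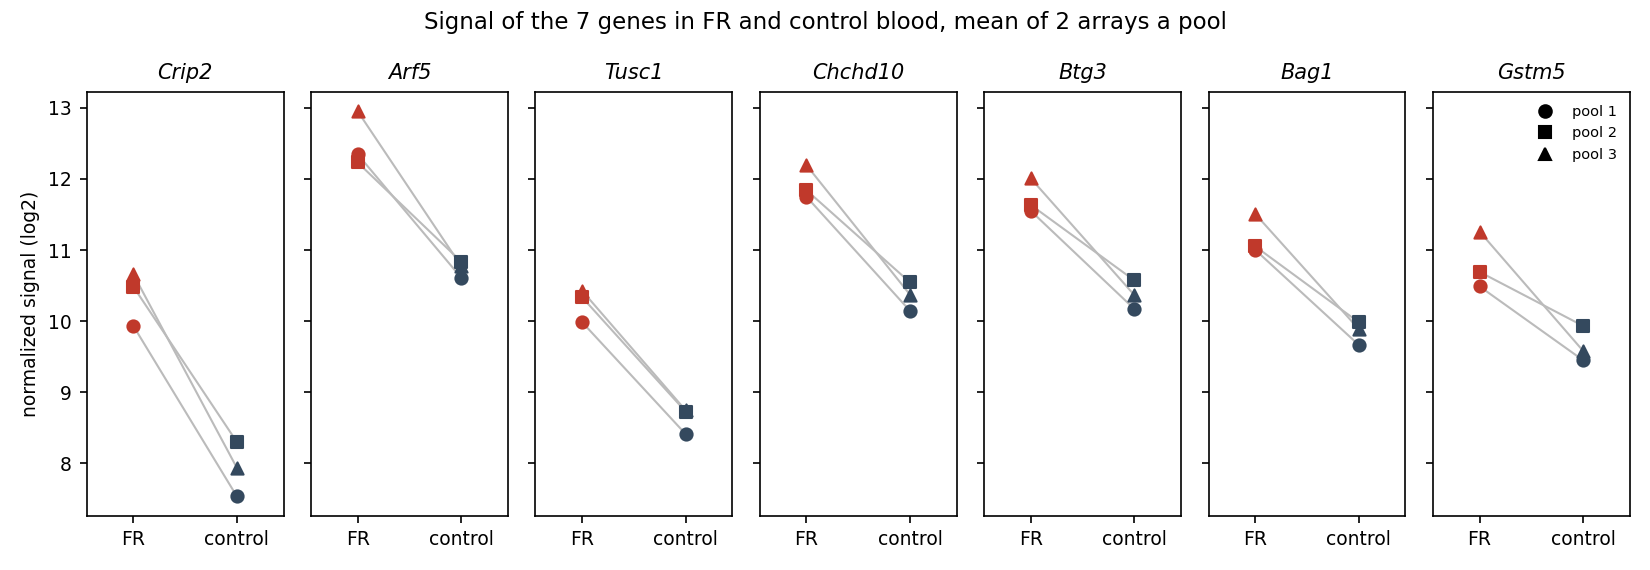
Normalized log2 signal of the 7 genes in FR blood (left of each panel, red) and control blood (right, dark), each point the mean of the 2 arrays of a pool and lines joining FR and control of a pool. In 7 of 7 genes every FR pool lies above every control pool, with the narrowest distance, 0.56, in Gstm5. Heights are not comparable between panels, since each gene has its own probe.

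For 7 of 7 genes every FR pool was above every control pool, as for 4.88% of all named genes tested, and FR was higher on 6 of 6 arrays, as for 11.3%. Of all 7913 named genes tested, 3.25% passed the limma test as higher in FR and 28.2% as lower, at a Benjamini-Hochberg adjusted p under 0.05. Nothing can be read from where the 7 genes stand against these shares, because that contrast chose them. By mean log2 ratio over pools 2 and 3 they held ranks 1 (Crip2), 2 (Arf5), 4 (Tusc1), 5 (Chchd10), 12 (Btg3), 13 (Bag1) and 15 (Gstm5). In pool 1 alone, which repeats the same animals, their ranks were 1, 2, 5, 3, 9, 11 and 26 in the same order.

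Named genes outside the choice lay between them. Uhrf1, which maintains DNA methylation during replication, had a log2 ratio of 1.66 ± 0.19, and the stress-responsive transcription factor Atf5 1.50 ± 1.15 (SD, n = 2 pools each). The ratios of Ube2j1 (1.41), Rpl41 (1.40), the amino acid transporter Slc7a5 (1.39), the cell cycle factor E2f2 (1.36), Uqcr11 (1.35) and the mitochondrial folate enzyme Mthfd2 (1.27) also exceeded the 1.22 of Gstm5. Among those just below it was Cox4i1 (1.19 ± 0.36), a subunit of cytochrome oxidase. The choice therefore has no gap at its lower edge.

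**Figure D3:**
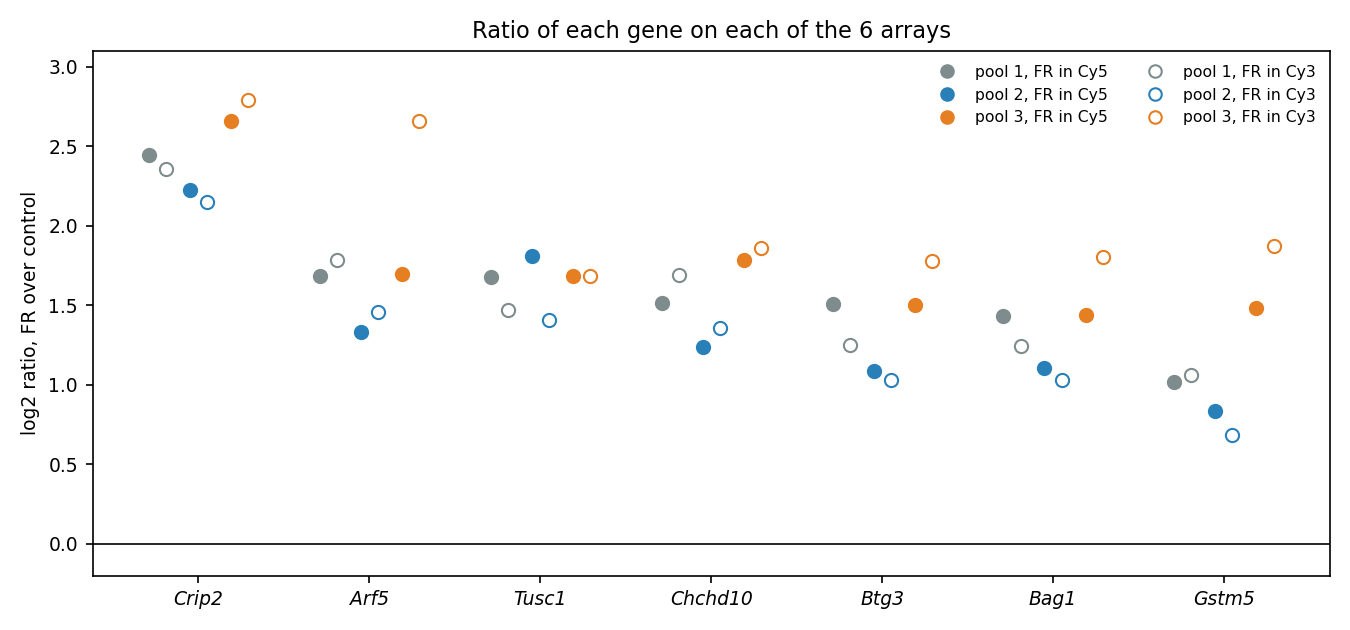
Log2 ratio, FR over control, of the 7 genes on each of the 6 arrays, coloured by pool and filled where FR was in Cy5, open where FR was in Cy3. Every value lies above 0, from 0.68 (Gstm5, pool 2) to 2.79 (Crip2, pool 3), and Arf5 in pool 3 shows the widest distance between the arrays of a pool.

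Likeness between genes was measured as the Euclidean distance between their log2 ratios on the 6 arrays, which share their RNA in pairs and are described here with no test. Btg3 and Bag1 were nearest to each other, at a distance of 0.11. After Btg3 and Bag1, the nearest gene to both was Uqcr11, a subunit of respiratory complex III, at 0.44 from Btg3 and 0.39 from Bag1. Tusc1 was nearest to Uhrf1 (0.32), and so was Chchd10 (0.52). Among the genes nearest to Gstm5 was Nudt9 (0.47). With the highest ratio of all named genes, Crip2 had no near neighbour, the closest being Arf5 at 1.76. The nearest gene to Arf5 was Chchd10, at 0.84.

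The ratio was higher in pool 3 than in pool 2 for 7 of 7 genes, against 57.8% of all named genes. The genes were chosen for high ratios, so the 7 of 7 is a description and no result about them. The difference was 0.92 for Gstm5, 0.78 for Arf5, 0.58 for Btg3, 0.55 for Bag1, 0.54 for Crip2, 0.52 for Chchd10 and 0.07 for Tusc1 on the log2 scale. In Arf5, Chchd10, Btg3, Bag1 and Gstm5 most of it lay in the FR signal, which was 0.72, 0.35, 0.37, 0.46 and 0.57 higher in pool 3 than in pool 2, in that order. The control signal of these genes differed by -0.06, -0.17, -0.21, -0.10 and -0.35. Crip2 had more of its difference in control (-0.36) than in FR (0.17). The median ratio over the 7 genes was 1.57 in pool 1, 1.30 in pool 2 and 1.68 in pool 3, where the median over all named genes was -0.06, -0.05 and -0.05.

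The dye orientation gave a measure that the choice of genes did not use. Each pool has 1 array with FR in Cy5 and 1 with FR in Cy3, and the dye effect was taken as (FR in Cy5 minus FR in Cy3) divided by 2, tested over pools 2 and 3. It was called for 1 of the 7 genes, where 17.3% of 11500 features were called (limma, adjusted p under 0.05). That gene was Arf5, at -0.27 ± 0.30 (SD, n = 2 pools, limma adjusted p = 0.0338), and the effect was -0.06 in pool 2 and -0.48 in pool 3. The effect of Arf5 lay mostly in pool 3. When pool 1 replaced pool 2 it stayed at -0.27 but was not called (limma adjusted p = 0.228), in a setting where 3 features were called in all. When pool 1 replaced pool 3 it was -0.06 (limma adjusted p = 0.386). For the other 6 genes the dye effect lay between -0.07 and 0.10, with adjusted p from 0.269 to 0.893. Under median centring, which leaves the dependence of dye bias on brightness in place, 7 of 7 genes were called, with dye effects from 0.78 to 0.97.

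Most tested relatives of these genes were called lower or did not pass. Relatives were listed for 6 of the 7 genes, all but Tusc1, and of 45 listed genes 31 were tested. Of these, 1 was called higher, 18 lower and 12 did not pass, and their median log2 ratio was -0.39 where the median of all named genes was -0.04. The higher share was 3.23%, near the 3.25% of all named genes, and the lower share was 58.1% against 28.2%. The lists were drawn up with earlier results of these data known. A gene could enter the test through control alone, and 8 of the 18 lower relatives were well above background in FR on 6 of 6 arrays.

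Crip1, the small LIM protein closest in name to Crip2, is known from immune cells and gut. It had a log2 ratio of -2.64 in pool 2, -1.45 in pool 3 and -2.12 in pool 1, and at -2.05 ± 0.84 (SD, n = 2 pools) it was called lower. Its call held in 14 of 14 alternative settings. Crip3 (-0.08) and Csrp1 (-0.15) did not pass, and Csrp2 was called lower with FR not well above background on any array.

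In the ARF family of small GTPases 13 of 17 listed relatives were tested, with 1 called higher and 8 lower. Sar1a, which starts vesicle budding from the endoplasmic reticulum, was at -1.09 ± 0.35, though its other probe gave -0.10. The Golgi ARFs Arf1 (-0.49 ± 0.32) and Arf4 (-0.52 ± 0.18) and the endosomal Arf6 (-0.57 ± 0.27) were called lower, Arf4 with FR above background on 1 of 6 arrays. Arf3 (-0.23) did not pass. Arl4a was the relative called higher, at 0.60 ± 0.30, and both of its tested probes had positive ratios (0.49 and 0.60). That call was lost under median centring, without the replicate block and when the prior degrees of freedom were those estimated from 3 pools (the 3-pool prior), which lets genes differ in variance.

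Chchd2, the closest relative of Chchd10, was called lower at -1.30 ± 0.05 (SD, n = 2 pools), with its 2 probes at -1.30 and -1.25. Its call held in 14 of 14 alternative settings. Chchd1, a mitochondrial ribosome protein, was also lower (-0.99 ± 0.13), with FR above background on 1 of 6 arrays, as were Chchd3 (-0.49), a subunit of the MICOS complex that shapes the inner membrane, and Chchd7 (-0.39). Chchd5 (-0.08) did not pass. With the 3-pool prior, Chchd3 and Chchd7 did not pass either.

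Btg1, the relative of Btg3 that maintains quiescence of lymphocytes, was called lower at -1.52 ± 0.30 in 14 of 14 alternative settings, and its other probe gave -0.58. Btg2 (-0.07) and Tob2 (-0.15) did not pass, although another probe of Btg2 gave -0.81. Among the BAG co-chaperones Bag5 was called lower (-0.40), and Bag3 (-0.23) and Bag6 (0.31) did not pass. Of the mu-class glutathione transferases Gstm1 (-0.78 ± 0.29) and Gstm3 (-0.52 ± 0.18) were called lower and Gstm2 (0.21) did not pass. Another probe of Gstm1 gave -0.02. The mu-class genes lie in a cluster and are alike in sequence, so their probes may share transcripts, which could not be checked here.

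**Figure D4:**
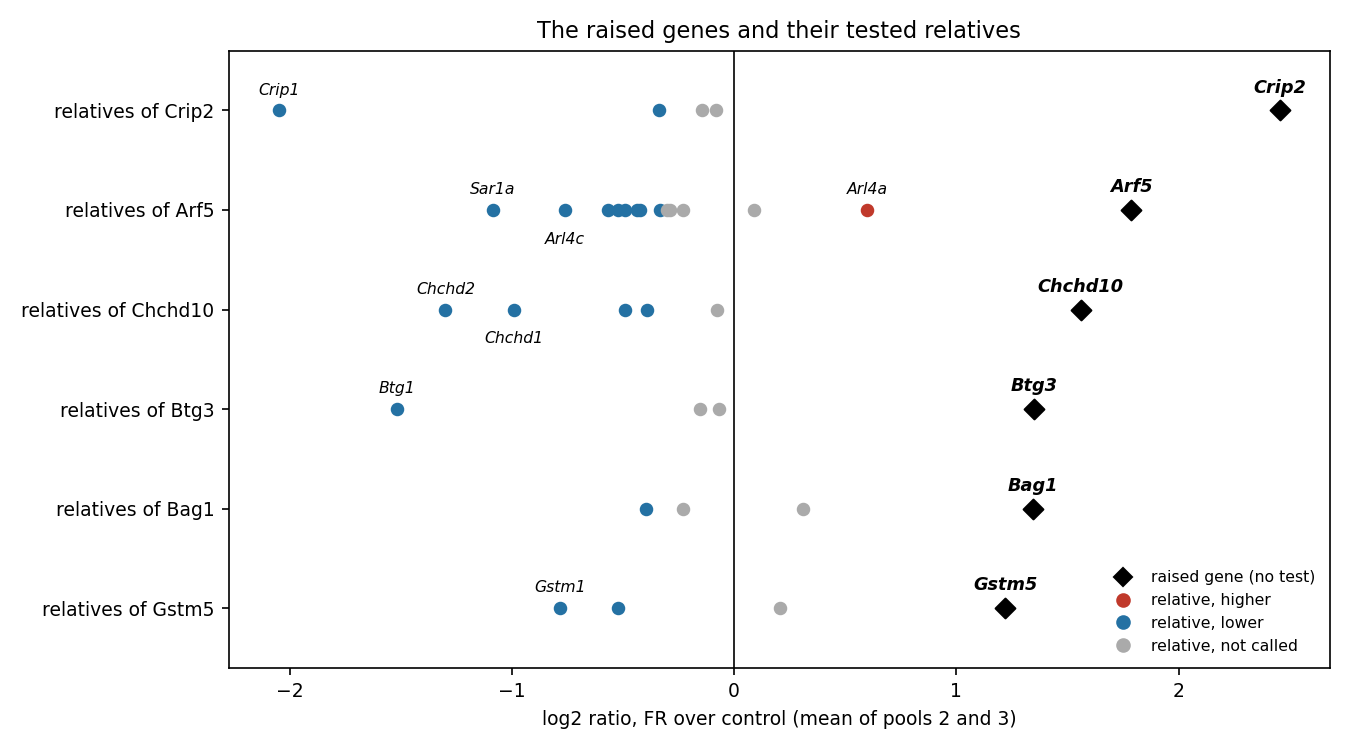
Mean log2 ratio over pools 2 and 3, FR over control, of 6 of the raised genes (black diamonds, no test) and of their 31 tested relatives (circles; red called higher, blue called lower, grey not called). The diamonds were chosen for high ratios, so their place to the right is fixed by the choice. Among the relatives Crip1 at -2.05 lies farthest to the left.

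Of 73 genes listed for known partners, 45 were tested, with 3 called higher and 17 lower and a median log2 ratio of -0.20. These are shares of 6.67% and 37.8%, where 3.25% and 28.2% of all named genes were called. The HSP70 system, on which Bag1 acts, was lower in 7 of 10 tested genes and higher in 0. Its members included the constitutive chaperone Hspa8 at -2.25 ± 0.21, with its other probe at -0.95, and the DNAJ co-chaperones Dnaja1 (-1.15 ± 0.11) and Dnajb1 (-1.11 ± 0.07). Some entered the test through control, with FR above background on 1 of 6 arrays for Hspa4, 2 for Hspa9, and 3 for Hspa14 and Dnaja1. Where both diets had to be above background 3 of 5 were lower, and without the replicate block 3 of the 10 passed. Bag1 was thus higher while the chaperone genes measured beside it were lower or did not pass.

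Of the CCR4-NOT genes, whose complex BTG proteins bind, 2 of 7 were called lower, Cnot6l (-1.05 ± 0.30) and Cnot4 (-0.48 ± 0.0027), and 5 did not pass. In the MICOS and cristae list 0 of 4 passed, between -0.21 (Micos13) and 0.18 (Samm50). Of 13 tested ARF exchange factors, GTPase activators and adaptors, 4 were called lower, led by Acap2 (-0.77 ± 0.51) and Acap1 (-0.56 ± 0.36). None of these 3 lists held a gene called higher. The lower shares of the CCR4-NOT and ARF lists were near the 28.2% of all named genes, so they are no result about those lists. Acap2 was above background in FR on 1 of 6 arrays and Cnot6l on 3, and another probe of Acap2 gave -0.21. With both diets above background 1 of 8 genes of the ARF list and 1 of 4 of the CCR4-NOT list were lower.

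Other glutathione enzymes went both ways. Of 11 tested, 3 were called higher and 4 lower, where 3.25% and 28.2% of all named genes were called. The phospholipid peroxidase Gpx4 (0.56 ± 0.25), the microsomal transferase Mgst3 (0.55 ± 0.18) and the theta-class transferase Gstt1 (0.50 ± 0.15) were higher. The subunits of the enzyme that starts glutathione synthesis, Gclc (-0.80 ± 0.03) and Gclm (-0.60 ± 0.44), were lower, as were Mgst1 (-0.63) and Mgst2 (-0.50). Mgst1 was above background in FR on 3 of 6 arrays, Mgst2 on 4 and Gclc on 5, and Gstt1 in control on 5. With both diets above background 7 genes were tested, with 2 higher and 1 lower. The 3-pool prior left 1 higher and 2 lower, and without the replicate block 0 were called. Under median centring Gpx4 and Mgst3 did not pass.

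Marker lists of blood cells were set beside the 7 genes to show which cell types had ratios of the same sign. Of 77 tested markers of 7 blood cell types, 6 were called higher and 44 lower. Of all named genes 3.25% were called higher and 28.2% lower. The highest marker was Slc25a37 (mitoferrin 1), which carries iron into mitochondria for heme synthesis, at 1.05 ± 0.61. It was 0.62 in pool 2 and 1.48 in pool 3.

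Erythroid markers were the only blood list in which more tested genes were called higher than lower, an order that did not hold in all settings. Of 17 tested, 5 were called higher and 3 lower, 9 did not pass, and the median was 0.09. The share called higher was above the 3.25% of all named genes, and the share called lower was below their 28.2%. Beside Slc25a37 the higher genes were the transferrin receptor Tfrc (0.68 ± 0.41), the membrane skeleton genes Sptb (0.61 ± 0.22) and Add2 (0.41 ± 0.18), and the last enzyme of heme synthesis, Fech (0.51 ± 0.48). The lower genes included Xpo7 (-0.52 ± 0.35) and Trim10 (-0.51 ± 0.53). The heme synthesis enzyme Alas2 (0.09 ± 0.26) and alpha globin Hba-a1 (0.01 ± 0.21) did not pass. The list was not of a single direction, and with the 3-pool prior 3 were higher and 1 lower, while the series table gave 4 and 4. With pool 1 in place of pool 3, 5 were higher and 6 lower. Slide as a random block gave 6 and 6, and no replicate block 1 and 1. FR in Cy5 alone gave 8 and 4, and FR in Cy3 alone 3 and 1. The median also changed sign, to -0.06 with the series table, -0.07 with pool 1 in place of pool 3 and -0.16 with FR in Cy3 alone.

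The erythroid median was 0.08 in pool 1, -0.14 in pool 2 and 0.32 in pool 3. A higher ratio in pool 3 than in pool 2, as the 7 raised genes had, was seen in 17 of 17 tested erythroid markers, but also in 12 of 12 B cell, 9 of 9 monocyte, 6 of 6 NK cell and 9 of 10 neutrophil markers, against 5 of 9 T cell and 7 of 14 platelet markers. It therefore does not single out a cell type. The summed normalized signal of the list was between 614433 and 730140 in FR pools and between 535207 and 633383 in control pools, and the ranges overlapped. No erythroid marker on the array was below background on all arrays of a diet. The part of erythroid cells in the ratios of the 7 genes was not tested.

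Markers of white cells and platelets were mostly called lower, where 28.2% of all named genes were called lower and 3.25% higher. Of 60 tested, 41 were called lower and 1 higher, the neutrophil and acute phase protein Lcn2 (0.33 ± 0.40), a call that held in 5 of 14 alternative settings and was lost, among others, when pool 1 replaced either pool. B cell markers were lower in 10 of 12 (median -1.30), monocyte markers in 8 of 9 (-1.10), NK cell markers in 4 of 6 (-0.996), platelet markers in 11 of 14 (-0.97), T cell markers in 4 of 9 (-0.27) and neutrophil markers in 4 of 10 (-0.21). Of these lists, the T cell and neutrophil markers had the shares called lower that were nearest to 28.2%. Many white cell markers entered through control, where they are high. Il7r, Ccr2 and Fcgr1 were above background in FR on 0 of 6 arrays. With both diets above background, 4 of 6 B cell, 4 of 5 monocyte, 1 of 1 NK cell, 11 of 14 platelet, 1 of 6 T cell and 3 of 6 neutrophil markers were lower, and 0 were higher. The B cell receptor gene Cd79b was at -4.48 ± 0.27, the monocyte protease Ctss at -3.48 ± 0.88 and the platelet chemokine Ppbp at -2.67 ± 0.55. Summed normalized signals ran from 2367 to 2938 in FR pools and from 9789 to 16907 in control pools for B cells, from 5055 to 6329 in FR and from 34650 to 51673 in control for monocytes, and from 44436 to 46621 in FR and from 106285 to 107008 in control for platelets. A ratio from an array compares a transcript with the rest of the labelled RNA, and the part of these lower cell types in the ratios of the 7 genes was not tested.

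Because the blood was drawn from the heart, markers of heart muscle and vessel lining were set beside Crip2. Of 12 cardiac muscle markers on the array 4 were tested and 0 passed, with a median of 0.13, and their summed normalized signal was between 2342 and 2729 in FR pools and between 2234 and 2685 in control pools. The heart troponin gene Tnnt2, which did not enter the test, was above background on 3 of 6 arrays in FR and 0 of 6 in control, and Myh6 on 2 of 6 in both. Of 7 tested endothelial markers 2 were lower, near the 28.2% of all named genes, and 0 higher. The lower ones were Vwf (-0.93 ± 0.15), which platelets also hold, and Esam (-0.52 ± 0.09). Under other settings some were called higher and others lower. With pool 1 in place of pool 3, 1 of 4 cardiac markers was higher and 1 lower. Of 7 endothelial markers 2 were then higher and 3 lower. FR in Cy5 alone gave 2 endothelial markers higher and 2 lower. Slide as a random block gave 3 cardiac markers higher and 1 lower, and 3 endothelial markers higher and 3 lower. Named genes called higher numbered 1050, 626 and 2191 in these settings, in that order, against 257 in the main test. Both medians were below 0 under median centring, at -0.06 and -0.11.

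**Figure D5:**
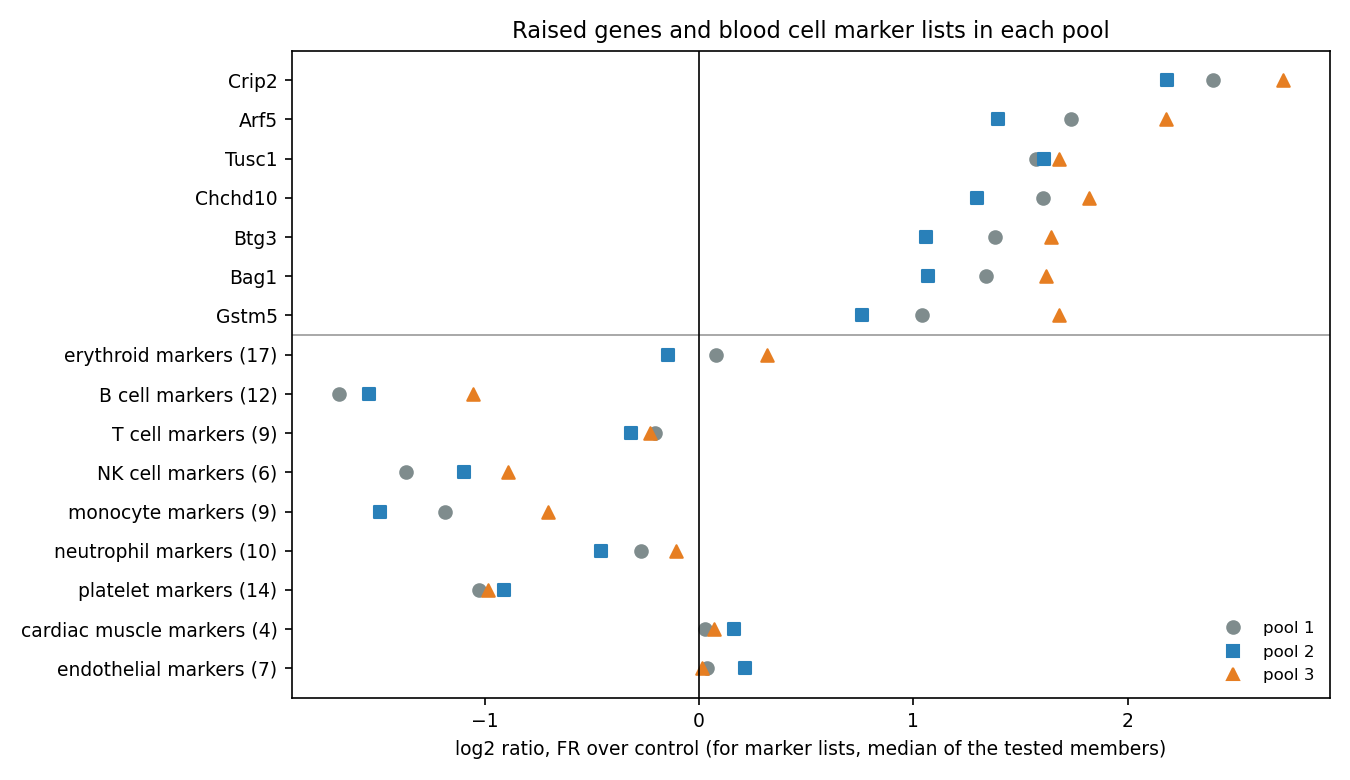
Log2 ratio, FR over control, in each pool for the 7 raised genes (above the line) and the median of the tested members of each marker list (below it, number tested in brackets). The 7 genes lie between 0.76 and 2.72, the erythroid medians between -0.14 and 0.32, and the B cell, NK cell, monocyte and platelet medians below -0.70 in every pool.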

How the data were processed

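Whole blood RNA of FR and control mice was measured on 6 two-colour Agilent arrays. Spot intensity, linear and not normalized between arrays, was deposited as scanner output. Per the submitters' processing notes, the software was Agilent Feature Extraction 11.0.1.1. The authors' series table gives log10 ratios of red over green processed signal, equal to the scanner values within 5e-10, neither centred nor turned. Its column medians, FR in Cy5 before FR in Cy3, were -0.00938 and -0.0277 (pool 1), 0.0441 and 0.00763 (pool 2) and 0.0520 and -0.0221 (pool 3). Directions came from the dyes in the labels.

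Median signals were corrected with normexp (offset 50) and normalized by loess within arrays, control spots at weight 0. Spots with outlier marks were dropped, and ratios were turned to FR over control and averaged over the 2 arrays of a pool. Signals per channel were scaled between arrays by Aquantile. Of 41174 probes, 23374 were named through accessions in the RefSeq table of GRCm38.p6. Probes were kept where FR, or control, exceeded background clearly on 4 of 4 arrays of pools 2 and 3, and the brightest stood for its gene. limma 3.58.1 in R 4.3.3 tested the log2 ratios of pools 2 and 3 against 0 (eBayes with trend, two-sided), adjusted by Benjamini-Hochberg over 11511 features. With 2 pools the fit gave features of like signal a common variance, so a p-value for 1 gene is too small where that gene varies more than others. The pool is a block because FR and control share an array. The test was checked on simulated data in which every feature had the same spread. That check therefore says nothing about genes that vary more than others.

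Between 20.4% and 55.6% of spots were well above background in FR, and between 37.2% and 62.1% in control, with 0 saturated. Correlations between the arrays' ratios ran from 0.70 to 0.94. The number of pools limits the precision. The p-values set a ratio against a spread between 2 pools that features of like signal share, not against the gene's own spread. A few results that the naming rule took are not reported here. The genes and lists were chosen with earlier results of these data known. Named beside the 7 genes are genes ranked among them or just below, the 3 nearest to each, measured relatives, and partner or marker genes that were called or had the largest ratios of their list.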

Additional observations from a re-analysis of the deposited data

Results flagged for a closer look

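Dye effects were called for 17.3% of 11500 features, so a call alone does not set a gene apart. The dye effect of Arf5 was flagged because its FR over control ratio differed between the dye orientations, by a test over pools 2 and 3. It was -0.2726 on the log2 scale (limma adjusted p = 0.0338), with -0.06 in pool 2, -0.48 in pool 3 and -0.05 in pool 1. The value comes mostly from the pool 3 array with FR in Cy3, on which the ratio was 2.66 and on which 20.4% of spots were well above background in FR, the lowest share of the 6 arrays. The effect was not called when all 3 pools were used (adjusted p = 0.115) or when FR and control both had to be above background (adjusted p = 0.0581). Over 9 alternative settings its adjusted p ran from 0.00311 to 0.386. With pools 1 and 2 as the replicates, Tusc1 was called (adjusted p = 0.00952) and Arf5 was not. The cause was not tested.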

How the results depend on the processing

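Over 13 alternative settings the log2 ratios of the 7 genes gave 91 values, of which 0 changed sign. Of these values 82 moved by less than the SD between pools 2 and 3, or not at all. The other 9, 2 of Crip2 and 7 of Tusc1, moved by more. With no dim filter, with both diets above background or without the replicate block these ratios cannot change, so those values are among the 82. The ranges of the 7 genes were 2.23 to 2.98 (Crip2), 1.51 to 2.06 (Arf5), 1.43 to 1.95 (Tusc1), 1.37 to 1.71 (Chchd10), 1.16 to 1.52 (Btg3), 1.14 to 1.52 (Bag1) and 0.90 to 1.38 (Gstm5). With the turned and centred series table their ranks fell as far as 49 (Gstm5). Each gene has 1 probe, so no other probe could be used. Named genes called higher numbered 257, and 107 under median centring, 582 with all 3 pools, 626 when FR in Cy5 was used alone, 2191 with slide as a random block, 102 with the prior degrees of freedom estimated from 3 pools (the 3-pool prior), and 295 to 1050 without replicate 2 or 3, pool 1 standing in. Named genes called lower numbered 2230, and 1052 with both diets above background, 3459 with slide as a random block, 1413 with the 3-pool prior, and 1882 to 3271 without replicate 2 or 3. Median centring moved the median of all features to -0.18 from 0.01. Relatives called higher numbered 1, and 0 under median centring or with the 3-pool prior, 3 with slide as a random block, and 2 when either dye orientation was used alone. Relatives called lower numbered 18, and 8 with both diets above background, a filter that leaves fewer genes and relatives to test. They numbered 11 when FR in Cy3 was used alone and 9 with the 3-pool prior. Without the replicate block that pairs FR and control on an array, 67 genes were higher, 780 lower, and 0 relatives higher and 5 lower. Dye effects were called for 1985 features, and for 8715 under median centring, which leaves dye bias in place, 6799 with no dim filter, 816 with both diets above background, and 3 to 2814 without replicate 2 or 3. Under median centring the Arf5 dye effect turned to 0.7843, and those of the other 6 genes were called too. Other causes were not tested. Brightness limits the relatives more than the 7 genes.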
